A study of Rattus norvegicus with 46 samples.

Results

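Frontal lobe of rats given 10 mg/kg chlorpyrifos in experiment A was compared with frontal lobe of the vehicle rats of that experiment. The comparison used 8 of the 46 arrays, chosen by their titles: the 5 numbered animals at 10 mg/kg and vehicle animals 2, 3 and 4. All animals were male F344 rats, an inbred laboratory strain, aged 11 to 12 weeks, and each received a single dose and was killed 96 hours later. The vehicle and the route are not given in the sources used here. A piece of about 30 mg per animal gave 15 ug of total RNA for 1 Affymetrix rat array, so each array is 1 animal. Experiment A also held 3 usable arrays at 1 mg/kg and 3 at 50 mg/kg. Experiment C, a separate set of rats with its own vehicle, held 4 usable arrays at 10 mg/kg and 3 of vehicle. The labels mark C vehicle animal 1 and C 10 mg/kg animals 2 and 3 as a first repeat without saying of what.

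Chlorpyrifos is an organophosphate insecticide that the body converts to an oxon. The oxon binds the active serine of acetylcholinesterase, the enzyme that clears acetylcholine from synapses, and overstimulates muscarinic and nicotinic receptors. In cortex, acetylcholine comes mainly from basal forebrain axons, with receptors on projection neurons, interneurons and glia. The oxon also binds other serine hydrolases, among them butyrylcholinesterase, carboxylesterases and lipases. The comparison asks which transcripts differed in the frontal lobe 4 days after this single dose.

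Vehicle animal 1 was left out because its column does not follow the row order of the others. Its Pearson correlation over probe sets with the 39 usable arrays lay between -0.0054 and -0.00060, whereas the 8 arrays correlated with one another at 0.968 to 0.979. Median intensities of the 8 arrays lay between 260.2 and 278.65. The deposited table holds no detection calls. The number of arrays limits the precision.

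The ratio of 3' to 5' beta-actin control probe sets, which rises as RNA or its labelling shortens, separated the groups. It was 1.41, 1.42, 1.43, 1.43 and 1.47 in 10 mg/kg animals 1 to 5, against 1.53, 1.85 and 1.49 in vehicle animals 2, 3 and 4. All 5 dosed arrays lay below all 3 vehicle arrays, and vehicle animal 3 was farthest away. The log2 difference was -0.17 (-0.077 without vehicle animal 3), with p = 0.018 by a two-sided exact permutation test over 56 splits, the smallest p that 5 against 3 arrays can give, and 0.054 after Benjamini-Hochberg adjustment over 3 array measures. The Gapdh ratio (p = 0.46, adjusted 0.64) and the array median (p = 0.64, adjusted 0.64) overlapped between groups in the same exact test. The hexokinase ratio was 1.68 to 2.07 in dosed animals, against 1.69, 2.41 and 1.61 in vehicle animals, where animal 3 was again the highest. Whether this ratio plays a part in any difference below was not tested beyond 1 fit that took it as a covariate.

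**Figure D1:**
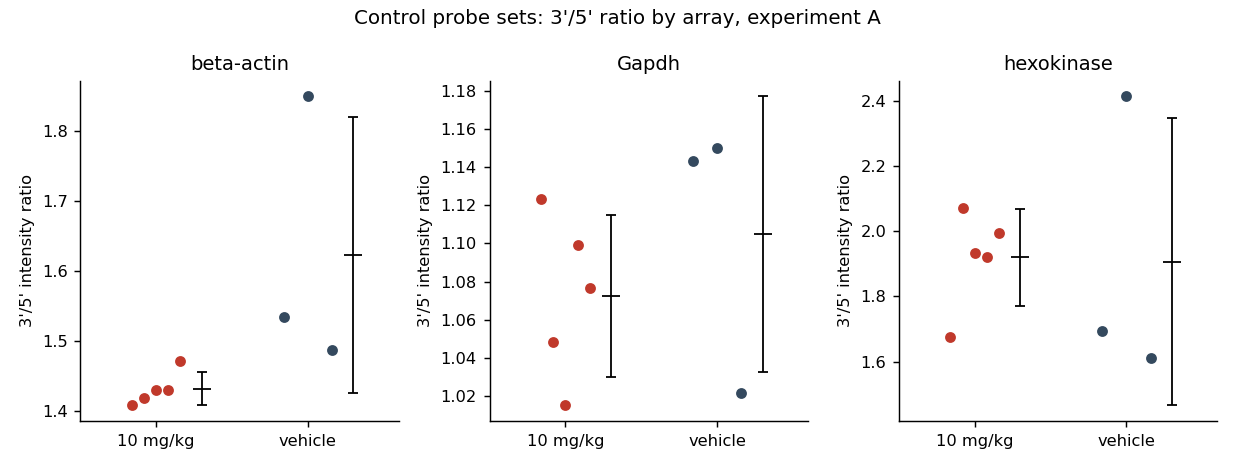
Ratio of 3' to 5' intensity of the beta-actin, Gapdh and hexokinase control probe sets in each array of experiment A at 10 mg/kg (5 arrays, left) and vehicle (3 arrays, right), linear axes that do not start at 0. Points are arrays and bars are mean ± SD. The 5 dosed beta-actin ratios, 1.41 to 1.47, all lie below the vehicle ratios, and vehicle animal 3 has the highest beta-actin and hexokinase ratio.

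The pieces held cortical markers and differed in what else they held. Slc17a7, the vesicular glutamate transporter of cortical projection neurons, lay between 12.05 and 12.41 log2 intensity in dosed animals, against 12.39 to 12.70 in vehicle animals (-0.35 ± 0.22, SE). A second, dimmer Slc17a7 probe set was at 9.61 to 10.49 in dosed animals, against 10.55 to 10.93 in vehicle animals, with no overlap (-0.60 ± 0.38, SE). Of the 20 cortical projection neuron markers on the array, 20 passed the filter on dim probe sets. That filter uses the mean over all 39 usable arrays, so passing it does not describe these 8 pieces alone. Penk, the enkephalin precursor abundant in striatum, was 12.94, 11.62, 9.97, 9.92 and 11.23 in dosed animals, against 12.51, 10.68 and 10.71 in vehicle animals. Dosed animal 1 and vehicle animal 2 thus had the highest Penk of their groups, and Drd2, the D2 dopamine receptor, was highest in the same pair, at 10.41 and 10.00. Ttr, the transthyretin of choroid plexus, was 13.70 in dosed animal 3 and 7.54 to 8.55 in the other dosed animals, against 8.36, 10.13 and 8.14 in vehicle animals. Oxt, the oxytocin precursor of the hypothalamus, was 5.26 to 6.31 in dosed animals, against 8.70, 5.59 and 6.22 in vehicle animals, where animal 2 stood apart. In whole tissue, fewer cells of a type and less RNA per cell cannot be told apart.

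Few probe sets passed a test between dosed and vehicle animals. In limma with Benjamini-Hochberg adjustment, 1 of 11106 probe sets passed an adjusted p of 0.05 (0.00900% of those tested), and it was higher at 10 mg/kg. At an unadjusted p under 0.05, 190 probe sets were higher (1.71%) and 131 lower (1.18%). Those 321 make 2.89% of the probe sets, and the median change over all 11106 was 0.00 on the log2 scale. With no difference anywhere, about 5% would be expected under that threshold. Values of the 5 dosed and 3 vehicle arrays did not overlap in 235 probe sets that were higher (2.12%) and 180 that were lower (1.62%). No probe set with a gene symbol passed.

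The probe set that passed, 1388630_at, has no gene symbol in the platform annotation. Its log2 intensity was 7.59, 7.62, 7.51, 7.42 and 7.41 in dosed animals 1 to 5, against 6.85, 6.23 and 6.69 in vehicle animals 2, 3 and 4. The groups did not overlap, and the dosed arrays spanned far less than the vehicle arrays. The means were 7.51 ± 0.09 (SD, n = 5) in dosed and 6.59 ± 0.32 (SD, n = 3) in vehicle animals, a log2 difference of 0.92 ± 0.16 (SE) or 1.89-fold, with an adjusted p of 0.024 in limma. The other 11 groups of the series averaged 7.29 to 7.56, so the vehicle group of experiment A was the one that stood apart. At 1 mg/kg the 3 arrays were at 7.52, 7.51 and 7.27, and at 50 mg/kg they were at 7.57, 7.17 and 7.61. In experiment C the means were 7.54 at 10 mg/kg and 7.55 in vehicle, a difference of -0.01 ± 0.17 (SE). The call was lost when vehicle animal 3 was left out, at a difference of 0.74 with an adjusted p of 1.00 in limma. It was also lost without vehicle animal 4 (adjusted p 0.12) or without dosed animal 1, 2 or 3 (adjusted p 0.096, 0.10 and 0.072), and when only the 8 arrays entered the limma fit (adjusted p 0.86).

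**Figure D2:**
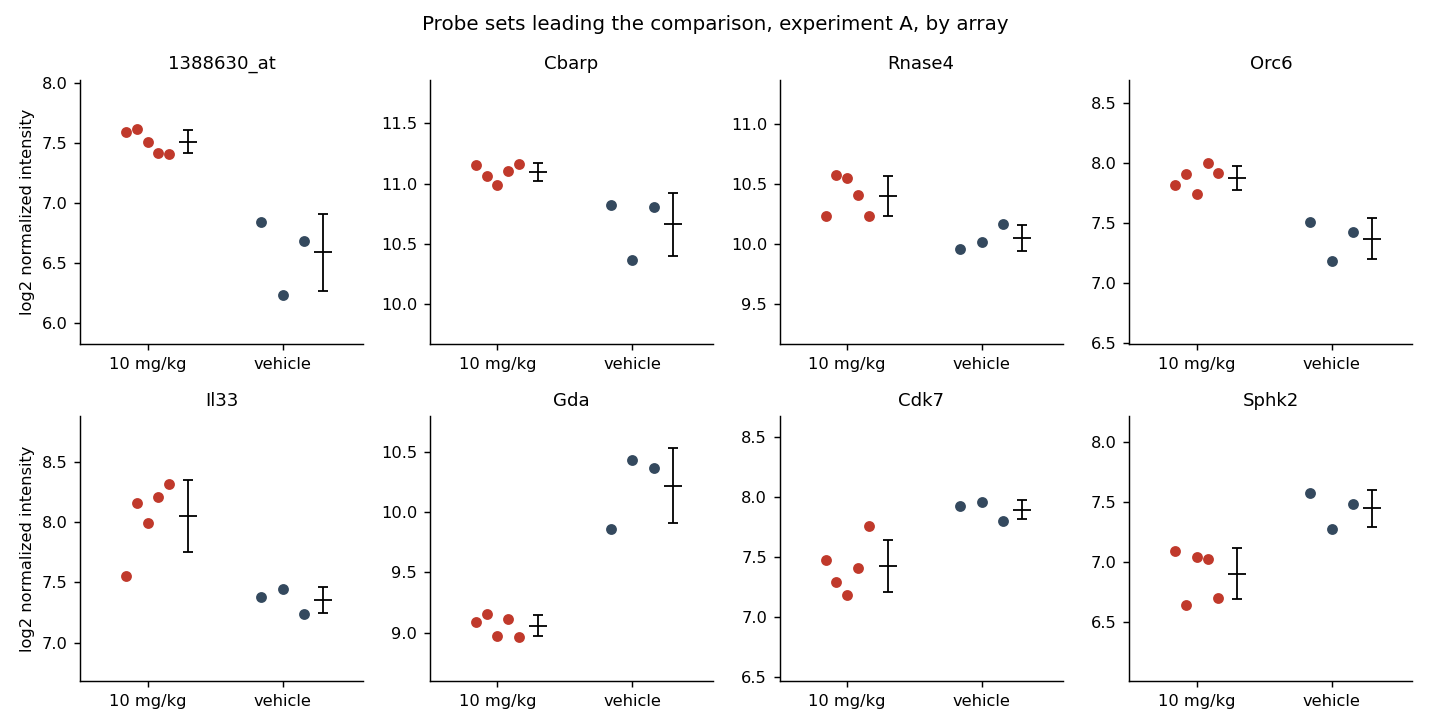
Log2 normalized intensity of 8 probe sets in each array of experiment A at 10 mg/kg (5 arrays, left) and vehicle (3 arrays, right). Points are arrays, bars are mean ± SD, and every panel spans the same number of log2 units. The groups do not overlap in any panel, a property that was part of how 7 of the 8 were chosen, and the 1388630_at probe set is the one that passed the adjusted test.

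The 12 genes higher at 10 mg/kg with the lowest unadjusted p, among those whose groups did not overlap, had adjusted p of 0.67 to 1.00 in limma. Non-overlap chose them, so it says nothing further about them. Cbarp, a regulator of voltage-gated calcium channels, was at 11.15, 11.07, 10.99, 11.10 and 11.17 log2 intensity in dosed animals, against 10.82, 10.36 and 10.81 in vehicle animals. Its difference was 0.43 ± 0.10 (SE), and vehicle animal 3 lay well below the other 2 vehicle arrays. Without vehicle animal 3 the difference was 0.28. Rnase4, a secreted ribonuclease, was at 10.23, 10.57, 10.55, 10.41 and 10.23 in dosed animals, against 9.96, 10.02 and 10.17 in vehicle animals, a difference of 0.35 ± 0.09 (SE). The lowest dosed and the highest vehicle value of Rnase4 nearly met. Orc6, a subunit of the origin recognition complex of DNA replication, was at 7.75 to 8.004 in dosed animals, against 7.18 to 7.51 in vehicle animals, a difference of 0.51 ± 0.13 (SE).

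Il33, an alarmin cytokine that glia of the rodent brain make, was at 7.56, 8.16, 7.995, 8.21 and 8.32 in dosed animals, against 7.38, 7.45 and 7.24 in vehicle animals. Dosed animal 1 lay near the vehicle values and the other dosed animals well above them. Its difference was 0.69 ± 0.21 (SE), and a second, brighter Il33 probe set gave 0.43 ± 0.18 (SE). Peds1, the desaturase of plasmalogen synthesis, differed by 0.63 ± 0.17 (SE) and Ermp1, a peptidase of the endoplasmic reticulum, by 0.31 ± 0.09 (SE). The other 6 differed by 0.33 to 0.45. They were Lrfn4, a synaptic adhesion protein, Plekhm2, which links lysosomes to kinesin, Nudt1, which clears oxidized nucleotides, the Polycomb protein Pcgf6, and Shkbp1 and Zfp692. A second Zfp692 probe set differed by 0.14 ± 0.10 (SE).

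Of the 12 genes lower at 10 mg/kg chosen in the same way, Gda differed most. Gda is guanine deaminase, which in neurons also binds PSD-95 and shapes dendrites. It was at 9.09, 9.16, 8.97, 9.11 and 8.96 in dosed animals, against 9.86, 10.44 and 10.37 in vehicle animals, with means of 9.06 ± 0.09 (SD, n = 5) and 10.22 ± 0.31 (SD, n = 3). The gap between the groups was wider than the span of either. Its difference was -1.17 ± 0.41 (SE), with an adjusted p of 1.00 in limma, and it passed (adjusted p 0.021) only when the 8 arrays were fitted alone. The spread that the main fit shares over 39 arrays includes experiment C, where Gda had an SD of 0.72 at 10 mg/kg and 0.87 in vehicle. A second Gda probe set gave -0.18 ± 0.17 (SE), so the probe sets of this gene disagreed in size. Gda was at 9.95, 10.86 and 10.25 at 1 mg/kg and at 9.18, 9.59 and 9.13 at 50 mg/kg, and in experiment C its difference was 0.00 ± 0.42 (SE).

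Cdk7, the kinase of the transcription factor TFIIH, was at 7.47, 7.29, 7.18, 7.41 and 7.75 in dosed animals, against 7.92, 7.95 and 7.80 in vehicle animals. Dosed animal 5 came close to the vehicle arrays. Its difference was -0.47 ± 0.12 (SE), with an unadjusted p of 0.00059 and an adjusted p of 1.00 in limma. Sphk2, a kinase that makes sphingosine 1-phosphate, differed by -0.54 ± 0.16 (SE), and its second probe set by -0.16 ± 0.16 (SE). Atp2b4, a plasma membrane calcium pump, was at 8.20 to 8.54 in dosed animals, against 8.77 to 9.25 in vehicle animals, a difference of -0.61 ± 0.23 (SE). The other 8 differed by -0.45 to -0.28. They were Slc30a5, a zinc transporter, Tmem263, Srpk1, a kinase of splicing factors, the collagen Col6a3, Jtb, Dapk1, a calmodulin-dependent kinase of cell death, Ugcg, the glucosylceramide synthase, and Mmd.

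Cholinergic genes, the pathway chlorpyrifos acts on, showed no probe set past the adjusted test. Of 16 measured members 9 were higher and 7 lower, with a median change of 0.01, against 4088 of 8003 genes higher (51.1%) and a median of 0.00 over all genes. The cholinergic median was -0.05 without vehicle animal 4. The muscarinic receptor Chrm2 was at 7.03, 7.39, 7.003, 7.43 and 7.23 in dosed animals, against 6.78, 7.02 and 6.58 in vehicle animals. Dosed animal 3 lay within the vehicle range and the other 4 lay above it. Its difference was 0.42 with a 95% interval of 0.01 to 0.83, and it was the 1 member below an unadjusted p of 0.05 (adjusted p 1.00 in limma). Chrm1, the main muscarinic receptor of cortical neurons, differed by -0.54 with an interval of -1.66 to 0.58. The 5 measured muscarinic receptors differed by -0.54 to 0.42 and the 4 measured nicotinic subunits by -0.25 to 0.05.

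Slc5a7, the choline transporter of cholinergic terminals, was at 7.42, 5.91, 5.43, 6.24 and 6.35 in dosed animals, against 7.74, 6.72 and 6.21 in vehicle animals. Its highest values were in dosed animal 1 and vehicle animal 2, the pair with the most Penk, and the groups overlapped. The difference was -0.62 with an interval of -1.50 to 0.26, and it was -0.19 without vehicle animal 2. Chat, which makes acetylcholine, lay under the filter on dim probe sets, at 6.33 ± 0.50 (SD, n = 5) in dosed and 5.71 ± 1.04 (SD, n = 3) in vehicle animals, and was not tested. Ache, the target enzyme itself, was not analysed here. Bche, butyrylcholinesterase, was at 7.26, 7.21, 7.02, 7.36 and 7.31 in dosed animals, against 7.18, 7.28 and 7.22 in vehicle animals. The groups overlapped fully, and the difference was 0.00 with an interval of -0.32 to 0.33.

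Among the 14 measured serine hydrolases that organophosphates can bind, 6 were higher and 8 lower, with a median change of -0.03 and none at an unadjusted p under 0.05. That median was 0.007 without vehicle animal 3. Pon2, a paraoxonase family member, differed by 0.19 ± 0.10 (SE) and Abhd12, a lysophosphatidylserine lipase, by -0.24 ± 0.14 (SE), which ran between -0.37 and -0.15 when 1 array was left out. Of 24 genes of xenobiotic metabolism 13 were higher, and 3 of these had an unadjusted p under 0.05, against 142 higher genes among all 8003. Cyp2d4, a brain-expressed cytochrome P450, was at 9.06, 8.94, 9.09, 8.96 and 9.03 in dosed animals, against 8.77, 8.89 and 8.64 in vehicle animals, a difference of 0.25 ± 0.12 (SE). The glutathione transferase Gstm5 differed by 0.33 ± 0.13 (SE) and Cyp4f4, a fatty acid hydroxylase, by 0.42 ± 0.20 (SE), and both overlapped between groups. Among the 27 genes of the oxidative stress response 17 were higher, and Sod3, the extracellular superoxide dismutase, was at 8.59 to 9.01 in dosed animals, against 8.50 to 8.54 in vehicle animals (0.29 ± 0.12, SE).

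Neuronal activity genes were mostly lower on average. Of 24 measured immediate early and activity-regulated genes 20 were lower at 10 mg/kg, with a median change of -0.14, and none passed the adjusted test. Dusp6, a phosphatase of ERK, was at 8.86, 9.05, 8.59, 8.81 and 9.07 in dosed animals, against 8.86, 10.27 and 9.60 in vehicle animals. Vehicle animal 2 lay among the dosed arrays, and vehicle animal 3 was the highest. Its difference was -0.70 ± 0.26 (SE, unadjusted p = 0.011). The other Dusp6 probe sets differed by -0.38 ± 0.32 and -0.36 ± 0.39 (SE). Junb, an AP-1 subunit, differed by -0.43 ± 0.19 (SE, unadjusted p = 0.031) and was also highest in vehicle animal 3, at 9.72. Without that animal the difference was -0.36 for Dusp6 and -0.25 for Junb. Per array, the median of the list relative to the vehicle mean was -0.15, -0.05, -0.22, -0.03 and -0.25 in dosed animals, against -0.14, 0.19 and 0.01 in vehicle animals, so the groups overlapped. Without vehicle animal 3 the median change of the list was -0.06. Against the other doses of experiment A the list was higher at 10 mg/kg, with a median difference of 0.15 from 1 mg/kg and 0.30 from 50 mg/kg. Compared with 50 mg/kg, 20 of the 24 genes were higher, beside 3849 of 8003 over all genes. In experiment C, 12 were higher and 12 lower at 10 mg/kg than in vehicle.

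Synaptic and channel genes were also mostly lower on average, and no member passed the adjusted test. Of 29 genes of synaptic vesicles and release 21 were lower, with a median change of -0.08, or -0.13 with the probe sets of a gene averaged. Per array their median was -0.12, -0.02, -0.13, -0.04 and -0.08 in dosed animals, against -0.01, 0.02 and -0.01 in vehicle animals, with no overlap. The groups nearly met, with dosed animal 2 at -0.023 and vehicle animal 4 at -0.010, and the beta-actin ratio did not overlap between them either. The median difference of the synaptic vesicle list at 10 mg/kg was 0.00 from 1 mg/kg and 0.17 from 50 mg/kg. Of 37 voltage-gated channels 26 were lower (median -0.09, and -0.05 without vehicle animal 3), and of 31 cytoskeleton and axon growth genes 23 were lower (median -0.09). Mapt, the tau protein of axons, was at 11.22 to 11.65 in dosed animals, against 11.81 to 12.14 in vehicle animals (-0.53 ± 0.32, SE). The other Mapt probe sets differed by -0.01 ± 0.15 and 0.20 ± 0.12 (SE), so the probe sets of this gene did not share a direction. Among 21 genes of the monoamine system 13 were lower. Htr2a, the serotonin 2A receptor of cortical projection neurons, has 3 probe sets, which differed by -0.37, -1.07 and -0.50 with unadjusted p of 0.031, 0.0092 and 0.034 and adjusted p of 1.00 in limma. On all 3, vehicle animal 3 lay within the dosed range and vehicle animal 4 was the highest array. The first of them ran between -0.59 and -0.19 when 1 array was left out. The Htr2a trio was singled out after its values were seen, and probe sets of 1 gene measure the same RNA. Of 20 cortical projection neuron markers 15 were lower (median -0.09, and -0.02 without vehicle animal 3), and Crym, a deep-layer marker that binds thyroid hormone, differed by -0.54 ± 0.24 (SE), and by -0.33 without vehicle animal 4. At 10 mg/kg in experiment C, 23 of the 29 synaptic vesicle genes were higher (median 0.14), as were 17 of the 20 projection neuron markers (0.24). Channel genes were higher there in 20 of 37 (0.11) and cytoskeleton genes in 20 of 31 (0.04), while 13 of the 21 monoamine genes were lower (-0.04).

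Astrocyte markers were mostly higher on average. Of 21 measured members 19 were higher at 10 mg/kg, with a median change of 0.15. Mlc1, a membrane protein of astrocyte end-feet, was at 10.91, 10.99, 11.06, 11.08 and 11.01 in dosed animals, against 10.91, 10.66 and 10.77 in vehicle animals. Dosed animal 1 met vehicle animal 2, and the other dosed animals were above all vehicle arrays. The difference was 0.23 ± 0.09 (SE, unadjusted p = 0.015, adjusted 1.00 in limma). Acsl6, an acyl-CoA synthetase, differed by 0.33 ± 0.14 (SE), but by 0.61 without vehicle animal 2 and 0.15 without vehicle animal 3. The difference of Agt, angiotensinogen, was 0.70 ± 0.35 (SE). Gfap, the filament protein that rises in reactive astrocytes, was 1 of the 2 lower members, at -0.10. Per array the median of the list was 0.12, 0.16, 0.11, 0.19 and 0.17 in dosed animals, against 0.09, -0.04 and -0.01 in vehicle animals. These did not overlap, but the beta-actin ratio did not overlap either, and with that ratio as a covariate the median of the list was 0.11. Without vehicle animal 3 it was 0.096. Against the other doses of experiment A the astrocyte list differed little, with a median difference of 0.02 from 1 mg/kg and -0.06 from 50 mg/kg. In experiment C, 7 of the 21 were higher and 14 lower at 10 mg/kg, with a median change of -0.06.

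Oligodendrocyte and myelin markers were higher in 16 of 16, with a median change of 0.27, yet none had an unadjusted p under 0.05. Mog, a myelin surface protein, was at 10.34, 10.04, 10.43, 10.26 and 10.09 in dosed animals, against 10.10, 9.97 and 9.13 in vehicle animals, where animal 4 stood apart. Its difference of 0.50 was 0.20 without that animal. Mbp, myelin basic protein, differed by 0.16 ± 0.10 (SE), and by -0.0016 with equal medians and no quantile step, so its direction depended on the scaling. Of the 16 members, 15 were higher with equal medians, and without vehicle animal 4 the median was 0.14. In experiment C all 16 were lower at 10 mg/kg, with a median change of -0.48, and Mog differed there by -0.77 (unadjusted p = 0.010). Striatum markers were lower there in 15 of 15 (median -0.96). Blood genes were higher in 4 of 4 measured members (median 0.64, and 0.15 over 7 genes without the filter on dim probe sets), led by Hbb, a globin, at 11.70 to 12.95 in dosed animals, against 11.57, 12.17 and 10.55 in vehicle animals. The Hbb difference of 0.88 was 0.44 without vehicle animal 4.

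**Figure D3:**
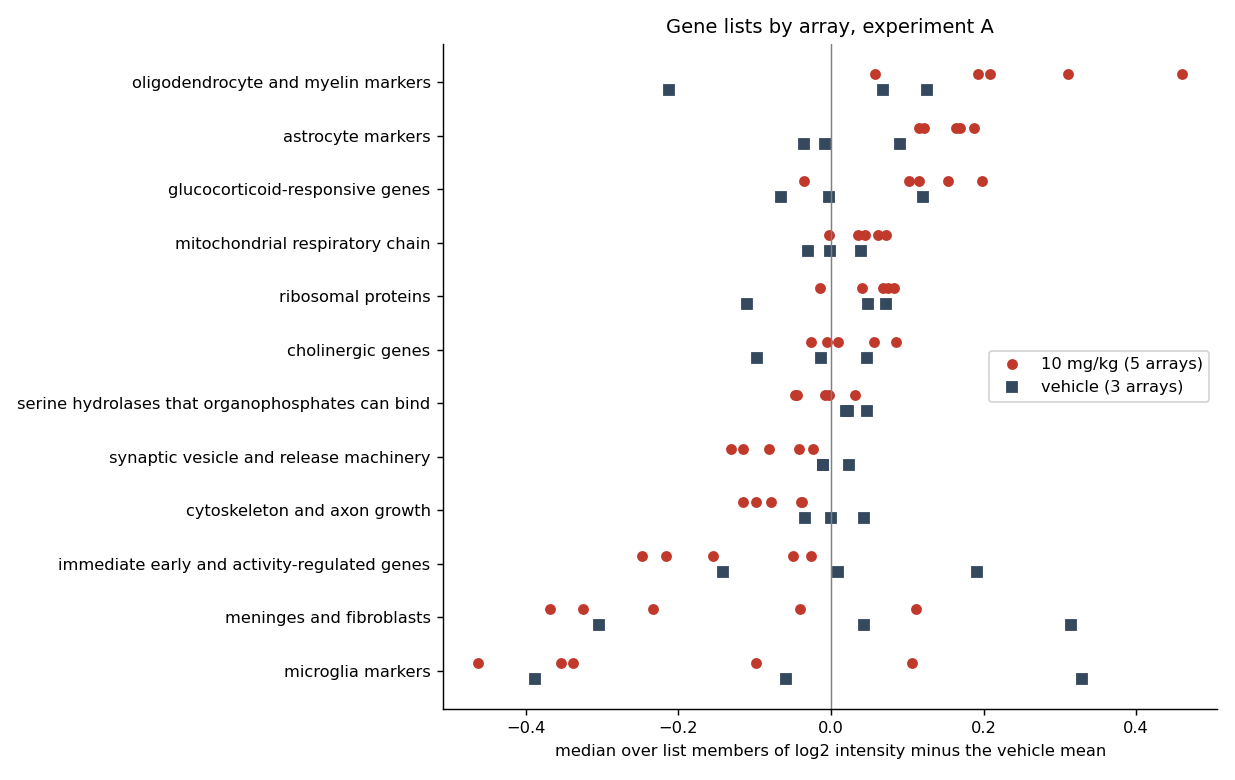
Median over the measured members of 12 gene lists of log2 intensity minus the vehicle mean, for each 10 mg/kg array (circles, upper row of each list) and each vehicle array (squares, lower row) of experiment A. Astrocyte markers of the dosed arrays, 0.11 to 0.19, lie above all vehicle arrays, while microglia markers spread from -0.46 to 0.11 in dosed animals and overlap the vehicle arrays.

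Microglia markers were mostly lower on average and varied between animals. Of 17 measured members 14 were lower, with a median change of -0.31, and 4 had an unadjusted p under 0.05, against 83 lower genes among all 8003. Cd53, a tetraspanin of leukocytes, was at 8.05, 8.26, 8.09, 7.91 and 7.75 in dosed animals, against 8.33, 8.36 and 8.48 in vehicle animals. The groups did not overlap, and the difference was -0.38 ± 0.15 (SE, unadjusted p = 0.015). Itgam, the CD11b integrin, was at 6.09, 7.50, 6.66, 4.78 and 6.73 in dosed animals, against 7.39, 7.39 and 7.60 in vehicle animals, a difference of -1.11 ± 0.48 (SE). Dosed animal 4 was by far the lowest, and dosed animal 2 reached the vehicle range. Laptm5, a lysosomal protein of blood lineage cells, differed by -0.43 ± 0.18 (SE) and Spp1, osteopontin, by -0.67 ± 0.30 (SE). Without vehicle animal 4 these were -0.26 for Laptm5 and -0.29 for Spp1, and without dosed animal 4 Itgam was at -0.71. Adjusted p was 1.00 in limma for all 4. Homeostatic markers had small differences, with P2ry12 and Csf1r at -0.03 each and Cx3cr1 at 0.07. Per array the median of the list was -0.10, 0.11, -0.35, -0.46 and -0.34 in dosed animals, against -0.06, -0.39 and 0.33 in vehicle animals. Vehicle animals 3 and 4 lay at opposite ends, and the median of the list was -0.64 without vehicle animal 3 and -0.03 without vehicle animal 4. Meninges and fibroblast genes, a tissue that carries its own macrophages, were lower in 14 of 17 (median -0.16, but -0.38 without vehicle animal 3 and -0.02 without vehicle animal 4), and their part in the microglia values was not tested. At 10 mg/kg in experiment C, 13 of the 17 microglia markers were higher (median 0.15). There 13 of the 17 meninges and fibroblast genes were also higher (median 0.13).

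The promoters of the 4 microglia markers with an unadjusted p under 0.05 are shown because all 4 were lower and belong to 1 cell type list, a choice made after their values were seen. Each runs from 250 bases before to 50 after the gene's start in RefSeq on GRCr8, 5′ to 3′ on the gene's strand. The positions are chr2:197087847-197088146 (minus strand) for Cd53, chr5:148371630-148371929 (plus strand) for Laptm5, chr1:192089342-192089641 (plus strand) for Itgam and chr14:5619755-5620054 (minus strand) for Spp1. Capitals mark GAGGAA, the core letters of the binding site of PU.1, a transcription factor of myeloid cells, or its reverse complement TTCCTC.
Cd53: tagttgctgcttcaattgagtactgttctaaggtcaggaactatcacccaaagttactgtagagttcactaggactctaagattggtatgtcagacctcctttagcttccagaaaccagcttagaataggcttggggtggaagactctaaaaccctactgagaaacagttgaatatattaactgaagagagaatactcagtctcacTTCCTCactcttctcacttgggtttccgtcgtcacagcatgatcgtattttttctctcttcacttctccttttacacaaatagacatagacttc
Laptm5: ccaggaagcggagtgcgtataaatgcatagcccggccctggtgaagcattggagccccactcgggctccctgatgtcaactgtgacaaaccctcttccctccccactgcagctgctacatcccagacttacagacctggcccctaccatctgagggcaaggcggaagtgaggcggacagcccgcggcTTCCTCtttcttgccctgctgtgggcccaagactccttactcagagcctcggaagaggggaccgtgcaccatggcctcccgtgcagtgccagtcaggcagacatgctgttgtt
Itgam: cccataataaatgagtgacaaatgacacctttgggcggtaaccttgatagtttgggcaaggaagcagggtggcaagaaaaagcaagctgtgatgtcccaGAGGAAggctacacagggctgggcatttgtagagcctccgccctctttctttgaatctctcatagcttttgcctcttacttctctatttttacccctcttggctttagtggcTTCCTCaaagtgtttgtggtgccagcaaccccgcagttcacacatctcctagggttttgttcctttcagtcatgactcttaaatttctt
Spp1: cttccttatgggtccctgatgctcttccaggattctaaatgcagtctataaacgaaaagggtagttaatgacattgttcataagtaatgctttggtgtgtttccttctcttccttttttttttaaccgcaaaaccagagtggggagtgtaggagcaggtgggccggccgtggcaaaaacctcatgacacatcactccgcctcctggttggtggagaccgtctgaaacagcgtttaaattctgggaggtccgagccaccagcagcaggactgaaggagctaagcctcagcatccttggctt
The letters occur once in Cd53 and in Laptm5, at 2 places in Itgam, and not in this window of Spp1. They occur in 9239 of 33469 promoters of this length (27.6%) and in 8 of the 13 measured microglia markers with a promoter in the table, of 17. A match is a description of the sequence.

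In the housekeeping lists no member passed the adjusted test. Mitochondrial respiratory chain genes were higher in 29 of 38 (median 0.05, and 0.03 without vehicle animal 3), ribosomal protein genes in 20 of 26 (median 0.06, but 0.01 without vehicle animal 3 and 0.10 without vehicle animal 4), and proteasome subunits in 10 of 28 (median -0.02). The 1 respiratory chain gene with an unadjusted p under 0.05 was lower, Ndufv1 at -0.25 (unadjusted p = 0.049 in limma). Glucocorticoid-responsive genes were higher in 16 of 24 (median 0.16, and 0.06 without vehicle animal 3), with Hsd11b1, which regenerates corticosterone, at 10.11 to 10.52 in dosed animals, against 9.91 to 9.93 in vehicle animals (0.33 ± 0.17, SE). Bdh1, an enzyme of ketone body use, was at 7.90 to 8.27 in dosed animals, against 7.30 to 7.82 in vehicle animals, a difference of 0.46 ± 0.18 (SE, unadjusted p = 0.016, adjusted 1.00 in limma), and of 0.30 without vehicle animal 4. Calr, a chaperone of the endoplasmic reticulum, differed by -0.24 ± 0.09 (SE, unadjusted p = 0.015) in a heat shock and unfolded protein list of which 19 of 29 were lower.

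Experiment C repeated the dose in other rats against its own vehicle, and shares no animal with experiment A. Regional markers also differed between its groups. At 10 mg/kg in C, striatum markers were lower in 15 of 15 (median -0.96) and hypothalamus and thalamus markers in 10 of 11 (-0.31). Whether the cut of the piece plays a part in how A and C compare was not tested. Of the 321 probe sets with an unadjusted p under 0.05 in experiment A, 126 had the same sign in C (39.3%), against 4964 of all 11106 (44.7%). At an unadjusted p under 0.05 in C as well, 4 had the same sign (1.25%) and 21 the opposite one (6.54%), against 232 (2.09%) and 504 (4.54%) of all 11106. Of the 4, 3 carry a symbol. Cdk7 differed by -0.47 in A and -0.28 in C, Tlcd3b by 0.35 in A and 0.51 in C, and Klhl8 by 0.26 in A and 0.37 in C. Tlcd3b, a ceramide synthase, and Klhl8 were named after their values were seen.

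**Figure D4:**
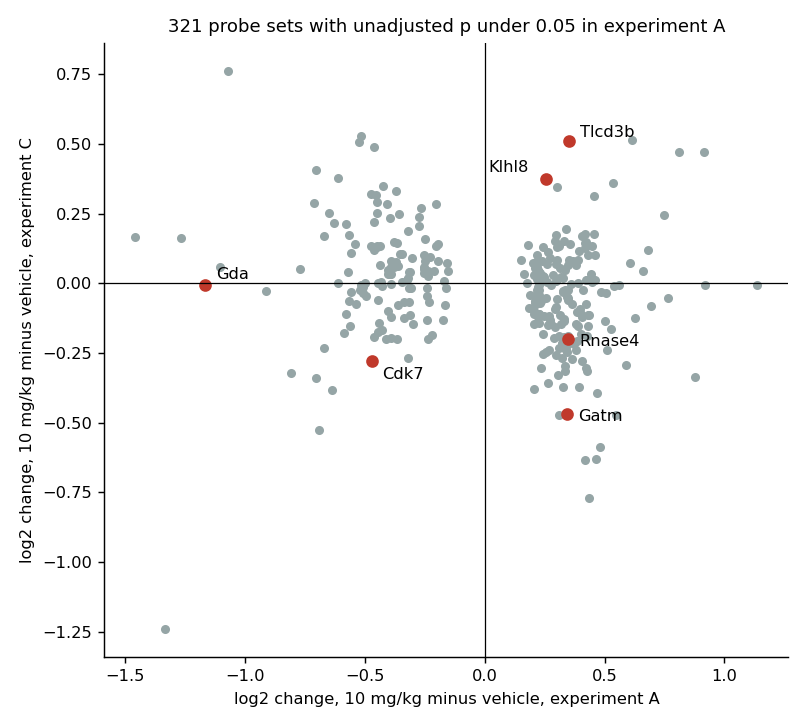
Log2 change at 10 mg/kg minus vehicle in experiment A (horizontal) and in experiment C (vertical) for the 321 probe sets with an unadjusted p under 0.05 in experiment A. The gap around 0 on the horizontal axis follows from that choice. The sign was the same in both experiments for 126 of them, Cdk7, Tlcd3b and Klhl8 among them, while Rnase4 and Gatm have opposite signs.

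The difference between both 10 mg/kg effects was tested directly. In limma, 0 of 11106 probe sets passed (0%), while 735 had an unadjusted p below 0.05, and the lowest adjusted p was 0.55. Gatm, the first enzyme of creatine synthesis, was at 10.64, 10.81, 10.79, 10.79 and 10.78 in dosed animals of A, against 10.44, 10.42 and 10.40 in vehicle animals of A. Its effect was 0.34 ± 0.12 (SE) in A and -0.47 in C, a difference of 0.81 with an adjusted p of 0.55 in limma. For Rnase4 the effect was 0.35 in A and -0.20 in C, with the same adjusted p for the difference.

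Within experiment A the 10 mg/kg animals were also set against the other doses. Against 1 mg/kg, limma passed 0 of 11106 probe sets (0%), while 953 had an unadjusted p below 0.05. The lowest adjusted p was 0.11, for Dusp1, a stress- and activity-induced MAP kinase phosphatase. Dusp1 was at 10.32, 10.21, 10.38, 10.48 and 10.24 at 10 mg/kg, against 9.34, 8.79 and 9.47 at 1 mg/kg, a difference of 1.12. The vehicle animals, at 10.23, 10.58 and 10.50 for this probe set, lay beside the 10 mg/kg animals. A second, dimmer Dusp1 probe set was at 7.49 to 7.96 at 10 mg/kg, against 7.995 to 8.40 in vehicle animals, with no overlap. The difference of this second probe set from vehicle was -0.48 ± 0.36 (SE, unadjusted p = 0.19 in limma).

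Against 50 mg/kg, 34 of 11106 probe sets passed in limma (0.306%), 23 higher and 11 lower at 10 mg/kg. Of the lower ones, 3 code for hypothalamic neuropeptides. Pmch, the precursor of melanin-concentrating hormone, was at 7.47, 7.40, 8.11, 7.54 and 7.58 at 10 mg/kg, against 8.49, 10.58 and 11.11 at 50 mg/kg. All 50 mg/kg animals lay above all 10 mg/kg animals, and the vehicle animals, at 7.44 to 7.74, lay with those at 10 mg/kg. Its difference was -2.44 ± 0.39 (SE), with an adjusted p of 0.0031. Oxt differed by -4.69 ± 1.06 (SE, adjusted p 0.044) and Avp, the vasopressin precursor, by -4.17 ± 0.90 (SE, adjusted p 0.032). At 50 mg/kg Oxt was 7.94, 11.61 and 12.18, so its high values came from 2 of the 3 animals, those that also had the highest Avp and Pmch. Slc5a7 differed by -2.10 ± 0.43 (SE, adjusted p 0.023). Of 11 measured hypothalamus and thalamus markers 2 were higher at 10 mg/kg than at 50 mg/kg and 3 passed, against 3849 higher and 27 passed of all 8003 genes.

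On the other side, Tnnc2, the fast troponin C of muscle, was at 8.77, 8.71, 8.50, 8.74 and 8.83 at 10 mg/kg, against 6.96, 6.91 and 6.49 at 50 mg/kg. Its difference was 1.92 ± 0.32 (SE, adjusted p 0.0031), and the vehicle animals, at 8.48 to 8.82, overlapped those at 10 mg/kg. Dusp1 was higher by 1.13 ± 0.21 (SE, adjusted p 0.015), Stx1a, a syntaxin of synaptic vesicle fusion, by 0.94 ± 0.21 (SE, adjusted p 0.035) and Cux2, a transcription factor of upper cortical layers, by 0.87 ± 0.20 (SE, adjusted p 0.044). Genes of the cortical projection neuron list were higher at 10 mg/kg than at 50 mg/kg in 17 of 20 (median 0.33). Of this list 2 passed the test, Stx1a and Cux2, and Stx1a is not particular to these neurons. Over all 8003 genes 3849 were higher (median -0.01) and 27 passed. Striatum markers were higher at 10 mg/kg than at 50 mg/kg in 1 of 15 (median -0.75) and olfactory bulb markers in 0 of 5 (-1.12). Markers of cortex, hypothalamus, striatum and olfactory bulb thus differ together between these groups. Whether the cut of the piece plays a part was not tested. Stx1a and Cux2 were named after their values were seen.

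These calls depended on single animals. Without 50 mg/kg animal 2 limma passed 92 probe sets, and without animal 3 or 4 it passed 3. Without animal 3 the limma adjusted p was 0.082 for Pmch, 0.31 for Oxt, 0.28 for Avp, 0.12 for Slc5a7, 0.20 for Dusp1, 0.18 for Stx1a and 0.20 for Cux2, while Tnnc2 passed at 0.025. Without animal 4 it was 0.074 for Pmch and for Tnnc2, 0.32 for Oxt, 0.25 for Avp, 0.15 for Slc5a7, 0.075 for Dusp1, 0.32 for Stx1a and 0.20 for Cux2, so none of the 8 passed. The direction of all 8 differences was kept in both cases. Leaving out 1 dosed animal ended the call for Oxt and Avp whichever it was, for Cux2 and Stx1a with animal 2, 4 or 5 and for Cux2 also with animal 1, and for Slc5a7 with animal 2, 3 or 4.

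**Figure D5:**
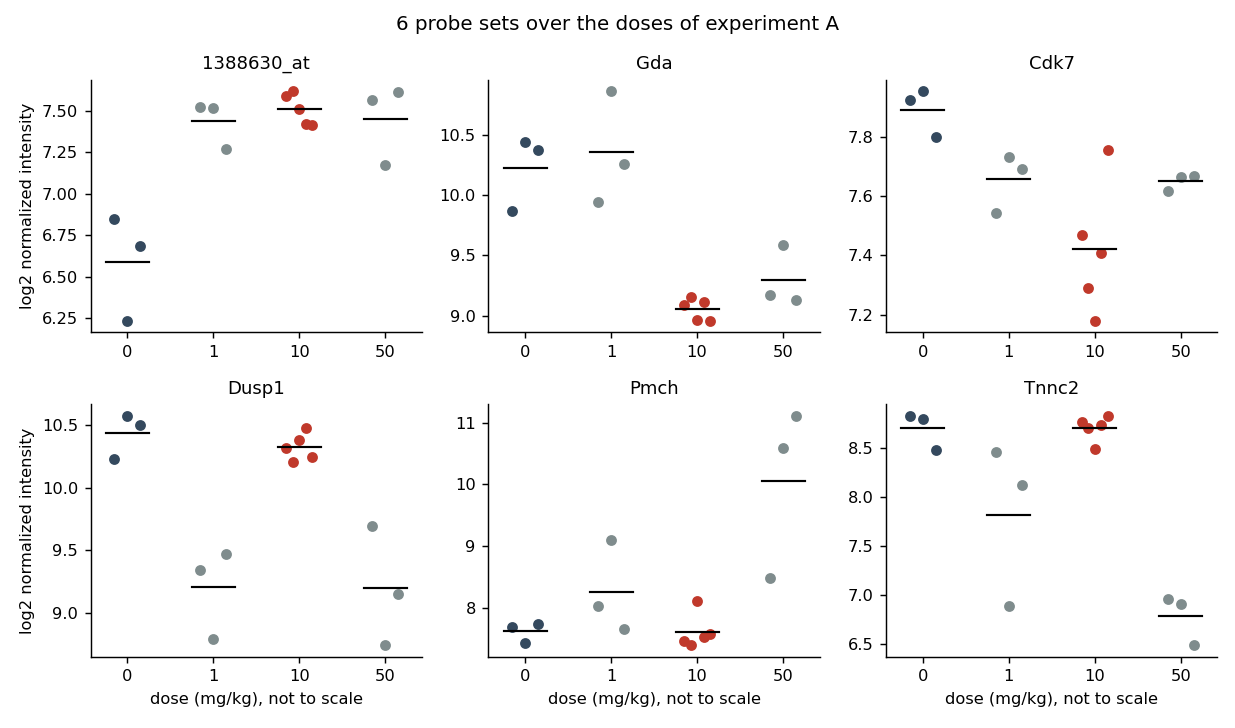
Log2 normalized intensity of 6 probe sets in each usable array of experiment A at 0, 1, 10 and 50 mg/kg (3, 3, 5 and 3 arrays), with the mean as a line and the doses at even steps. For 1388630_at the vehicle arrays stand below all doses, and Gda is low at 10 and 50 mg/kg. For Pmch, Tnnc2 and the brighter Dusp1 probe set, the one shown, the 10 mg/kg arrays lie beside the vehicle arrays.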

How the data were processed

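The deposited table holds linear signal intensity per probe set, 1 column per animal, as deposited by the authors; summarization software and array scaling are not given in the sources used here. Of 15923 probe sets 57 Affymetrix controls were left out. Array medians were made equal, values under the 5th percentile were raised to it (10.8), and log2 values were quantile normalized. Probe sets under the 30th percentile of mean intensity were dropped, leaving 11106. Over the whole series, 7 columns do not follow the shared row order and were not used. Of the probe sets, 12783 carry 1 symbol, 312 several and 2771 none. A gene was given by its probe set of highest mean in lists (8003 genes). A fit with 1 mean per experiment and dose over 39 arrays and 12 groups (27 residual degrees of freedom) was made in limma 3.58.1 (R 4.3.3) with a mean-dependent prior, two-sided, with Benjamini-Hochberg adjustment and a threshold of 0.05, and was tested on simulated data. Figures used matplotlib 3.10.9.

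Named genes were up to 12 per direction by lowest unadjusted p among those whose groups do not overlap, up to 4 per list by lowest unadjusted p, up to 5 for each other contrast, and fixed cholinergic and tissue markers. The members and the 38 gene lists were chosen with earlier results of these data known. The titles do not say what the animal numbers mean, and the main fit did not pair the animals. Dosed and vehicle animals of 1 number had deviations correlated at -0.048, -0.028 and -0.0047, too few values to settle whether the numbers mark pairs. Alternatives covered scaling, floor, filter, averaging the probe sets of a gene in lists, prior, array weights, the beta-actin ratio as a covariate, the arrays fitted, the animal number as a block and leaving out each array.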

Additional observations from a re-analysis of the deposited data

Results flagged for a closer look

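Of 100 values tested among the 5 animals at 10 mg/kg, 8 had 1 animal farther from the rest than a Dixon test at the 95% level allows, and chance gives about 1 in 20. Animal 3 held 4 of them: Ttr at 13.70, Pmch at 8.11, Ugcg at 8.67 and the median of the apoptosis and cell cycle list at 0.031 relative to the vehicle mean. Animal 2 had Lrfn4 at 9.0004 and Spp1 at 6.33. Animal 4 had Gstm5 at 10.77 and Ndufv1, a subunit of respiratory complex I, at 10.95. Values of genes are log2 intensity.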

How the results depend on the processing

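The single call against vehicle gave 0 calls with equal medians, without scaling, with the filter at the 50th percentile, with experiment A alone and with the replicate block, and 0 to 1 calls without 1 array. With the 8 arrays alone the 1 call was another gene, Gda. The difference between A and C gave 1 call with the compared groups alone and 0 to 2 without 1 array. Against 1 mg/kg there were 52 calls with array weights, 1 with the beta-actin covariate and 2 with experiment A alone, and 0 without any 1 array. Against 50 mg/kg there were 16 with equal medians, 17 without the filter, 168 with array weights, 66 with the beta-actin covariate, 63 with the compared groups alone, 87 with experiment A alone, 18 with the replicate block, and 3 to 92 without 1 array. The block on animal number uses numbers whose meaning the titles do not give. Lower immediate early genes numbered 12 with the filter at the 50th percentile, since fewer genes are tested. The astrocyte median was 0.11 with the beta-actin covariate and ran between 0.096 and 0.16 without 1 array. The microglia median ran between -0.64 and -0.026 and its lower members between 9 and 15 without 1 array. The share with the same sign in C ran between 31.4 and 48.7% without 1 array. Mbp reversed, to -0.0016 with equal medians and -0.014 without scaling. Other causes were not tested. Medians near 0 changed sign with scaling for cholinergic genes (-0.003) and cholesterol synthesis (0.009). With the replicate block, Pmch (adjusted p 0.096), Dusp1 (0.11), Stx1a (0.096) and Cux2 (0.10) against 50 mg/kg did not pass in limma. Without the filter, Oxt (0.081), Avp (0.073), Slc5a7 (0.052), Stx1a (0.073) and Cux2 (0.078) did not pass, nor did Oxt (0.055), Stx1a (0.064) and Cux2 (0.055) with equal medians, Cux2 without scaling (0.059), Oxt (0.054) and Cux2 (0.053) with 1 prior, and Oxt with experiment A alone (0.067).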
